A study of Mus musculus with 2 samples.

Results

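The *Sox*, *Fox*, *Tbx* and *Gata* genes were taken by symbol, as every *Sox*, *Tbx* or *Gata* gene with a number and every *Fox* gene with a class letter and a number. The rule found 73 of the 17774 genes with a row in the counts, of which 15 were *Sox*, 42 *Fox*, 12 *Tbx* and 4 *Gata* genes. In the GENCODE vM21 annotation 85 symbols match the rule, and the remaining 12, among them *Sox4*, *Sox10*, *Gata1*, *Foxh1* and *Foxj1*, were not analysed here.

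Cones were sorted by GFP fluorescence, 1 cell per well, from the retina of C57BL/6 mice that carried the *Pde6c* cpfl1 mutation together with eGFP under the *Chrnb4* promoter. One library came from uninjected retinae and 1 from retinae given a single intravitreal injection of GSK-J4 (10 µM) at PN14, and the labels give both as collected at PN24, 10 days after the injection. GSK-J4 blocks the Jumonji demethylases of H3K27. Both groups carried the mutation that kills the cones, there was no sham-injected library, and the eGFP marks every cell in which the *Chrnb4* transgene is active. The cell names of the GSK-J4 library hold the word adult, against the PN24 of its labels. The number of mice behind each library was not given in the sources used here.

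The 4 families are transcription factors defined by how they hold DNA. Sox proteins bend it with an HMG box, Fox proteins use a winged helix called the forkhead domain, Tbx proteins a T-box, and Gata proteins zinc fingers that read the letters GATA. Many members set cell identity in the embryo and are then shut off in cells that do not need them, and methylation of H3K27 at CG-rich promoters is a well-known means by which such genes are kept silent. In the mature retina *Sox2* and *Sox9* are known for Müller glia, *Tbx2* and *Tbx3* for the dorsal side of the developing eye, and *Foxd1* for its temporal side.

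After the filter on cells 82 uninjected and 64 GSK-J4-treated wells remained, on 1 plate per library, and an effect of the plate cannot be told apart from the treatment. The libraries held 1113424 and 208578 counts, with a median of 8118 and 2335.5 counts per well. Cells are named by plate and well, and 54 well positions were kept on both plates. Markers went against the label of the GSK-J4 library: the summed share of 11 cone markers was 2.59% in the uninjected and 0.213% in the GSK-J4 library, where 5 of them (*Opn1sw*, *Gngt2*, *Cngb3*, *Pde6c* and *Guca1a*) had no count and 14 of 64 wells had a count of any. Rod markers took 0.349% and 0.0206%. Lists for astrocytes, pericytes, bipolar, amacrine, horizontal and ganglion cells, microglia, pigment epithelium and erythrocytes each took from 0.000269% to 0.0137% of the uninjected and from 0% to 0.0177% of the GSK-J4 counts. All differences below are therefore between the library labelled uninjected and the library labelled GSK-J4. With 1 library per condition there is no replicate, no test was possible and no P-value is given. Intervals are 95% intervals of the counting error.

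Promoters of 49 of the 73 genes could be matched by symbol in RefSeq (GRCm38.p6), each taken from 250 bases before to 50 bases after the start. A promoter was called CG-rich where at least 50% of it was G or C and CG pairs reached at least 0.6 of the number its base composition would give. This held for 32 of the 49 members (65.3%), for 56.3% of 13028 genes of the table with a promoter, and for 0 of 421 *Olfr* and *Vmn* receptor genes. The median number of CG pairs was 22 in the members and 18 in all genes. Of the *Sox* promoters 9 of 11 were CG-rich, of the *Fox* promoters 17 of 28, of the *Tbx* promoters 4 of 8 and of the *Gata* promoters 2 of 2. Promoters of 4 members whose difference between the libraries passed the limit of size given below are printed 5′ to 3′ on the strand of the gene, to show how widely they differed in CG content. Capitals mark the CG pairs, of which *Sox12* had 47, *Gata3* 22, *Foxd1* 15 and *Sox5* 3. The windows lie at chr2:152397997-152398296 (minus strand) for *Sox12*, chr2:9878551-9878850 (minus strand) for *Gata3*, chr13:98353995-98354294 (plus strand) for *Foxd1* and chr6:143947057-143947356 (minus strand) for *Sox5*. The starts used by RefSeq for *Gata3* and *Sox5* lie inside the longer GENCODE genes.
Sox12: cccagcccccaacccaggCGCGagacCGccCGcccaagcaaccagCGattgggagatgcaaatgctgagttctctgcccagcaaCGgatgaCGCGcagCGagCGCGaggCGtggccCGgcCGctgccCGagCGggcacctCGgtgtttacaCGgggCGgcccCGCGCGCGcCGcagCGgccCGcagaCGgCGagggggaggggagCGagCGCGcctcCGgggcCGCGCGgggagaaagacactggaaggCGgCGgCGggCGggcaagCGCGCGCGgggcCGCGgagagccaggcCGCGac
Gata3: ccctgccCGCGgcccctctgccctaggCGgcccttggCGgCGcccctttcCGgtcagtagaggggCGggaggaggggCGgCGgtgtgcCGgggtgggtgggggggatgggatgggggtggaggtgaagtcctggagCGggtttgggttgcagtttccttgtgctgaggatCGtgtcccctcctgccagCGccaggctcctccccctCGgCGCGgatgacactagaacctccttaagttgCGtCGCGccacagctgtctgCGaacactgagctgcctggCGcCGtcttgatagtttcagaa
Foxd1: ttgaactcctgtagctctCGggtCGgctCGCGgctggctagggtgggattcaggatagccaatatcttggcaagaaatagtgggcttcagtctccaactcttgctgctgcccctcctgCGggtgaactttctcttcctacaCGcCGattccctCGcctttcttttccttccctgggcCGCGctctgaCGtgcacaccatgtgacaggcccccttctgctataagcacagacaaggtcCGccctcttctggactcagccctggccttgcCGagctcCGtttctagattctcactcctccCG
Sox5: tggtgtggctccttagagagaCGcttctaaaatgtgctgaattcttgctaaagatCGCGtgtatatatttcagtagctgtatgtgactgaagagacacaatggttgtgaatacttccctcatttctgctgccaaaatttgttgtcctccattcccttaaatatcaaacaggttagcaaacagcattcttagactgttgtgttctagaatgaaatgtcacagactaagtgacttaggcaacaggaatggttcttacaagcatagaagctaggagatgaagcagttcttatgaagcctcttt
Of the 8 members past the limit with a promoter 6 were CG-rich (75.0%), against 26 of 41 (63.4%) of the others, so members with and without a CG-rich promoter were found on either side of the limit.

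All 4 families took a higher share of the counts in the GSK-J4 library than in the uninjected library. The 73 genes together had 1186 counts (0.107%) in the uninjected and 473 counts (0.227%) in the GSK-J4 library, a ratio of the shares of 2.13 (1.91 to 2.37). *Sox* genes had 189 and 102 counts with a ratio of 2.88 (2.24 to 3.68), and *Tbx* genes 80 and 46 with a ratio of 3.07 (2.09 to 4.47). *Fox* genes had 668 and 249 counts with a ratio of 1.99 (1.71 to 2.30), and *Gata* genes 249 and 76 with a ratio of 1.63 (1.24 to 2.11). *Gata3* alone gave 88.0% and 77.6% of the *Gata* counts, and without it the *Gata* ratio was 3.02 (1.57 to 5.66). The ratios follow the scaling: the total counts differed 5.34-fold between the libraries, whereas the median of 13104 genes with counts in both differed 3.0-fold. The share of the median gene among these 13104 was thus itself 1.78-fold higher in the GSK-J4 library. The rest of the 15947 genes that passed the filter on low counts lacked a count in at least 1 library and did not enter, so the value depends on that choice. Scaled to that median, the ratio was 1.20 (1.07 to 1.33) for all members, 1.62 (1.26 to 2.07) for *Sox*, 1.72 (1.17 to 2.51) for *Tbx*, 1.12 (0.963 to 1.30) for *Fox* and 0.916 (0.699 to 1.19) for *Gata*, which turned its direction.

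**Figure D1:**
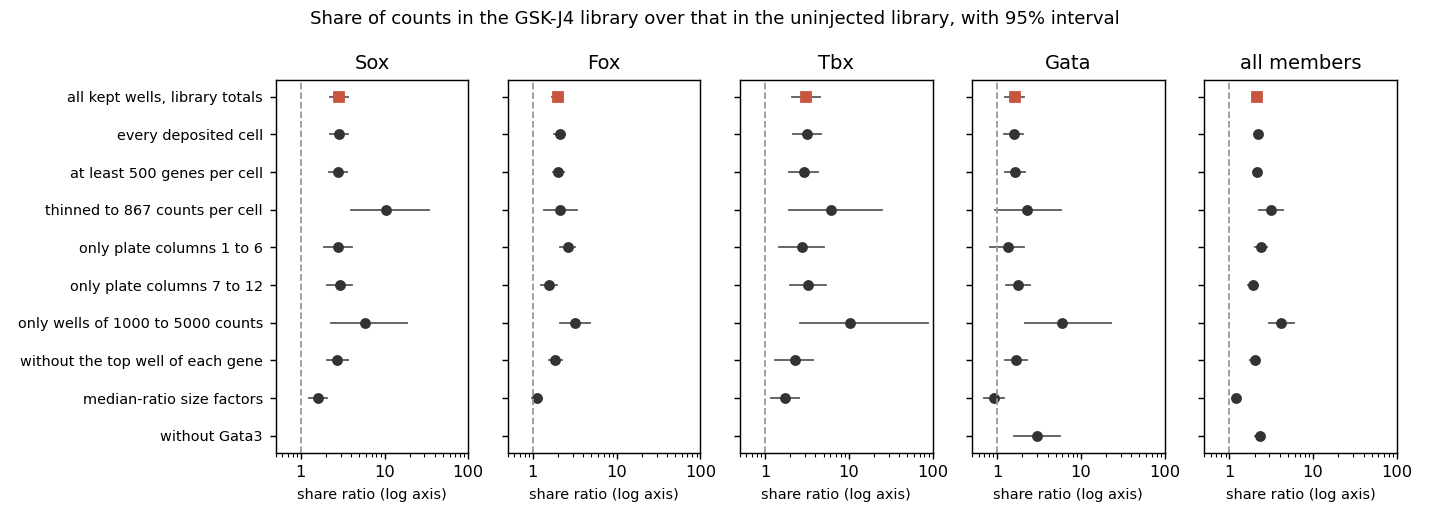
Share of counts in the GSK-J4 library divided by the share in the uninjected library, for each family and all 73 members (x axis, log), under each setting (y axis). Points give the ratio, bars its 95% counting interval, squares the value with library totals and all kept wells, and the dashed line a ratio of 1. The squares lie between 1.63 (Gata) and 3.07 (Tbx), and with median-ratio size factors the ratios lie between 0.916 and 1.72.

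A higher share was not particular to these genes. It was found in 62 of the 73 members (84.9%), in 60.0% of all 17774 genes, and in 373 of 510 *Olfr* and *Vmn* genes (73.1%), receptors of the olfactory and vomeronasal epithelia that serve as a measure of background. The receptors went from 0.634% to 1.47% of the counts, a ratio of 2.32 (2.22 to 2.42) that lay within the interval for the 73 members. The most counted receptor gene held 1940 of the 7063 uninjected and 369 of the 3069 GSK-J4 receptor counts, whereas the median receptor had 3 and 2. Values summed over the receptors thus rest in part on single genes, and the ratio without these was not computed. Per kilobase of exon, the members as a whole had 0.0308 counts per 10000 in the uninjected and 0.0655 in the GSK-J4 library, while the receptors had 0.0288 and 0.0650. The median member was above the median receptor on this scale, with 0.0137 against 0.00628 in the uninjected and 0.0417 against 0.0226 in the GSK-J4 library. It had a count in 4 of 82 and 3 of 64 wells, and the median receptor in 2 and 2. Members that exceeded 95% of the receptors per kilobase were *Gata3*, *Foxf1*, *Foxl2*, *Foxo3*, *Foxa3* and *Foxi3* in the uninjected library and *Gata3*, *Foxf1*, *Foxl2*, *Sox14* and *Sox21* in the GSK-J4 library. These were 6 and 5 of the 73 members, where about 5% of the receptors pass by definition. The other members were at a level per kilobase that at least 5% of the receptors reached or exceeded. Their counts are not read as expression in cones. The list depends on the scale, as the counts came from the 3′ and 5′ ends. By uninjected count alone, *Foxp1* was reached by 11 of 510 receptors, *Foxn3* by 12, *Foxo1* and *Sox6* by 18 and *Sox5* by 19. *Foxk1* was reached by 22 and *Sox21* by 24, all under 5%, but *Foxa3* by 31 and *Foxi3* by 64.

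**Figure D2:**
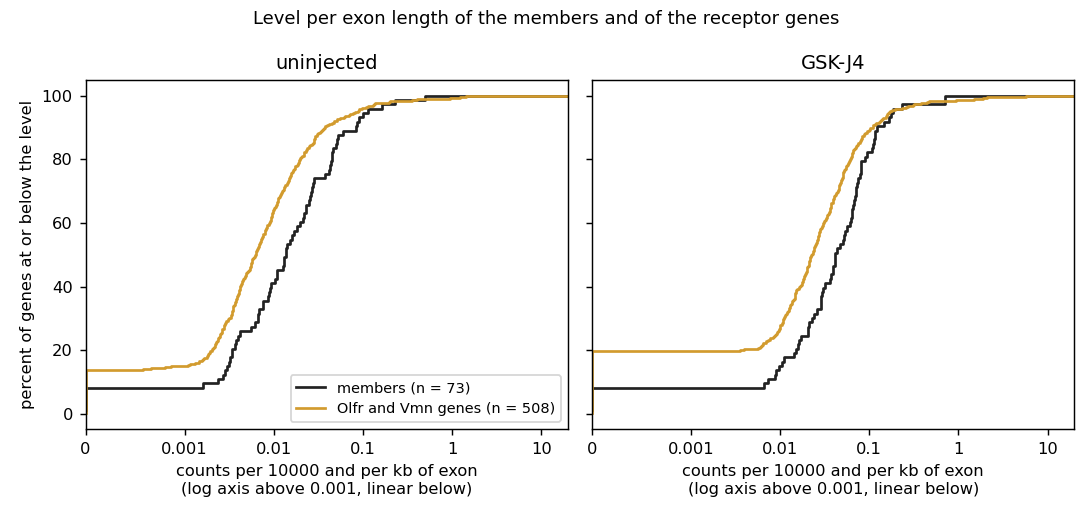
Percent of genes (y axis) at or below a level in counts per 10000 and per kilobase of exon (x axis, log above 0.001), for the 73 members and 508 Olfr and Vmn receptor genes in each library. The curve of the members lies to the right of the curve of the receptors over most of the range, with medians of 0.0137 against 0.00628 in the uninjected and 0.0417 against 0.0226 in the GSK-J4 library.

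For single genes the size of a difference was given as the log-fold, the natural log of the mean scaled count per 10000 plus 1 in GSK-J4-treated minus uninjected wells, and 0.3 and -0.3 were the limits used. A total of 10 of the 73 members (13.7%) lay above 0.3 and 0 below -0.3. Among all 17774 genes 11.4% lay above and 10.6% below, and among the 15947 genes that passed the filter on low counts 12.6% and 11.8%. The share of members above the limit was thus near that of all genes, whereas no member lay below. A log-fold below -0.3 needs an uninjected mean above 0.35 per 10000, which 7 of the 73 members had (*Gata3*, *Foxf1*, *Foxk1*, *Foxl2*, *Foxn3*, *Foxo3* and *Foxp1*), so the other members could lie above the limits but not below. The median member had 5 and 3 counts. Of the 73 members 68 passed the filter, and *Foxd4*, *Foxf2*, *Foxo6*, *Sox30* and *Tbx5* did not. The median log-fold was 0.097 over the members and 0.025 over all genes. By family the median was 0.27 for *Sox*, 0.082 for *Fox*, 0.13 for *Tbx* and 0.19 for *Gata*. With median-ratio scaling 1 member, *Foxd1*, remained above the limit. Of 11 alternative settings *Foxd1* was above it in 10, *Gata3* and *Sox5* in 9, *Foxf1* and *Sox6* in 8, *Gata2* and *Foxo3* in 7, *Sox12* in 6, *Tbx20* in 5 and *Foxq1* in 4.

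**Figure D3:**
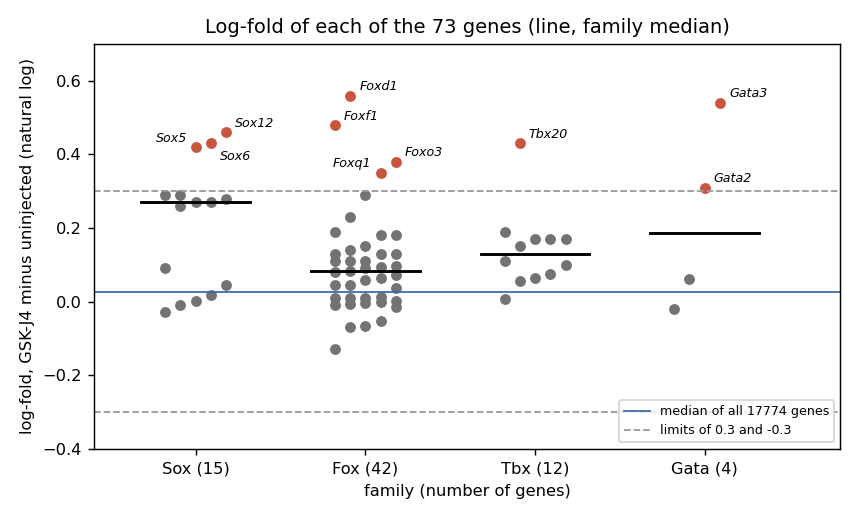
Log-fold of each of the 73 members (y axis, natural log, GSK-J4 minus uninjected) by family (x axis), with the family median as a black line, the median of all genes in blue and the limits of 0.3 and -0.3 dashed. The 10 members above the limit are named and in red, from Gata2 at 0.31 to Foxd1 at 0.56, and no member lies below -0.3.

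*Gata3*, the regulator of T helper 2 cells that is also needed in the inner ear, was the most counted member in both libraries. It lies at chr2:9857078-9890034 on the minus strand, and its exons overlap 9230102O04Rik on the same and Gm13256 on the other strand, whose reads cannot be told apart from its own because the strand setting of the counting was not stated. It had 219 counts in the uninjected library and 59 in the GSK-J4 library. Its level was 1.97 and 2.83 per 10000, a ratio of 1.44 (1.06 to 1.93), and its log-fold was 0.54. The lowest, median and highest count per well were 0, 1 and 44 in the uninjected library and 0, 0 and 11 in the GSK-J4 library. A count was found in 44 of 82 uninjected (53.7%) and 22 of 64 GSK-J4-treated wells (34.4%), so that its share of counts was higher in the shallower library while its share of wells was lower, and the wells of the libraries overlapped. With median-ratio scaling its log-fold was -0.15, and with summed libraries 0.26. The summed share of 5 lymphocyte markers was 0.0341% in the uninjected and 0.0163% in the GSK-J4 library, where *Cd4* and *Cd8a* had no count, and their part in the result was not tested.

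*Gata2*, a factor of blood progenitors and endothelium, had 17 and 13 counts in 7 and 8 wells, with a log-fold of 0.31 and a ratio of the shares of 4.08 (1.82 to 8.92). After every well was thinned to 867 counts its log-fold was -0.043. Endothelial markers (7 genes) had 0.00656% and 0.0158% of the counts, and *Cldn5* among them had none in the GSK-J4 library. Their part in this value was not tested. *Gata4*, known from the heart, had 8 and 3 counts in 6 and 3 wells (log-fold 0.061), and *Gata6* was among the members counted in under 5% of the wells of each library.

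Of the 15 *Sox* genes 3 lay above the limit and 12 within it. The SoxD genes, which lack an activation domain of their own and are known from cartilage and glia, held 84 of the 189 and 37 of the 102 *Sox* counts over *Sox5*, *Sox6* and *Sox13* (ratio 2.35, 1.55 to 3.50). *Sox5* (chr6:143828425-144781977, minus strand), which shares exons with *Sox5os1* on the other strand, had 40 counts (28.6 to 54.5) in 19 uninjected wells and 20 counts (12.2 to 30.9) in 18 GSK-J4-treated wells. Its highest count in a well was 9 and 3, its median over wells was 0 in both libraries, and 17 of the 18 GSK-J4-treated wells had exactly 1 count. Its log-fold was 0.42 and its share 2.67 times as high (1.48 to 4.67). *Sox6* had 42 counts in 12 and 16 counts in 11 wells, with a log-fold of 0.43 and a ratio of 2.03 (1.07 to 3.69). Without the well with the highest count in each library, the level was 0.285 and 0.850 per 10000 for *Sox5* and 0.307 and 0.60 for *Sox6*, so neither difference rested on 1 well. With median-ratio scaling the log-folds were within the limit, at 0.15 for *Sox5* and 0.047 for *Sox6*. That of *Sox5* was also within it in wells of 1000 to 5000 counts (0.21). That of *Sox6* was within it with summed libraries (0.25) and after thinning (0.30 when rounded).

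SoxC genes act in immature neurons. *Sox12* of this class (chr2:152393611-152398063, minus strand) had 0 counts in the 82 uninjected wells and 7 counts in the GSK-J4 library, 1 in each of 7 wells. Set against a floor of 3 counts over the uninjected library, its share was 12.5-fold higher, and its log-fold was 0.46. The 12.5 is not a lower bound, as it leaves out the counting error of the 7 counts (2.81 to 14.4). The log-fold was within the limit with at least 500 genes per cell (0.26), with summed libraries (0.29), with median-ratio scaling (0.22), in plate columns 7 to 12 (0.25) and in wells of 1000 to 5000 counts (0.26). The 0 of 82 wells has an interval of 0 to 4.40% of wells (3.66% at the floor of 3 wells), against 7 of 64 (10.9%, 4.51 to 21.2%). *Sox11* had 7 and 5 counts in 5 wells of each library (log-fold 0.28).

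SoxB1 genes keep neural progenitors and Müller glia, and SoxB2 genes counter them. *Sox1* had 3 and 8 counts in 3 and 7 wells, with a ratio of 14.2 (3.42 to 83.3), and *Sox2* 6 and 4 counts in 6 and 3 wells, with a ratio of 3.56 (0.739 to 15). Their log-folds were both 0.27. *Sox14* had 19 and 8 counts in 9 and 5 wells (log-fold 0.092), and *Sox21* 36 and 14 counts in 14 and 10 wells (log-fold 0.29). *Sox21* overlaps Gm4675 on the other strand. Over the class the ratio was 4.58 (1.93 to 10.7) for SoxB1 and 2.14 (1.24 to 3.56) for SoxB2, and no member of either passed the limit.

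*Sox9*, a SoxE gene of Müller glia, had 20 counts in 14 uninjected wells and 7 counts in 4 GSK-J4-treated wells, with a log-fold of 0.044 and a ratio of 1.87 (0.667 to 4.60). The 14 uninjected wells with *Sox9* all held a Müller glia marker, as did 58 of the 68 without it, and their median depth was 30307 counts against 6127. For *Sox2* the numbers were 6 of 6 wells and 66 of 76. In the GSK-J4 library a Müller glia marker was found in 3 of 4 wells with *Sox9* and 19 of 60 without it, at median depths of 10883 and 2118 counts, and in 2 of 3 wells with *Sox2* and 20 of 61 without it. Müller glia markers (9 genes) took 0.0965% of the uninjected and 0.0331% of the GSK-J4 counts, so the share of these markers was lower where the shares of *Sox2* and *Sox9* were not, and the part of depth or of free glial RNA was not tested. *Sox17*, a SoxF gene of endoderm and endothelium, had 5 counts in 5 wells and 9 counts in 8 wells, with a ratio of 9.61 (2.89 to 36.5) and a log-fold of 0.29, within the limit.

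**Figure D4:**
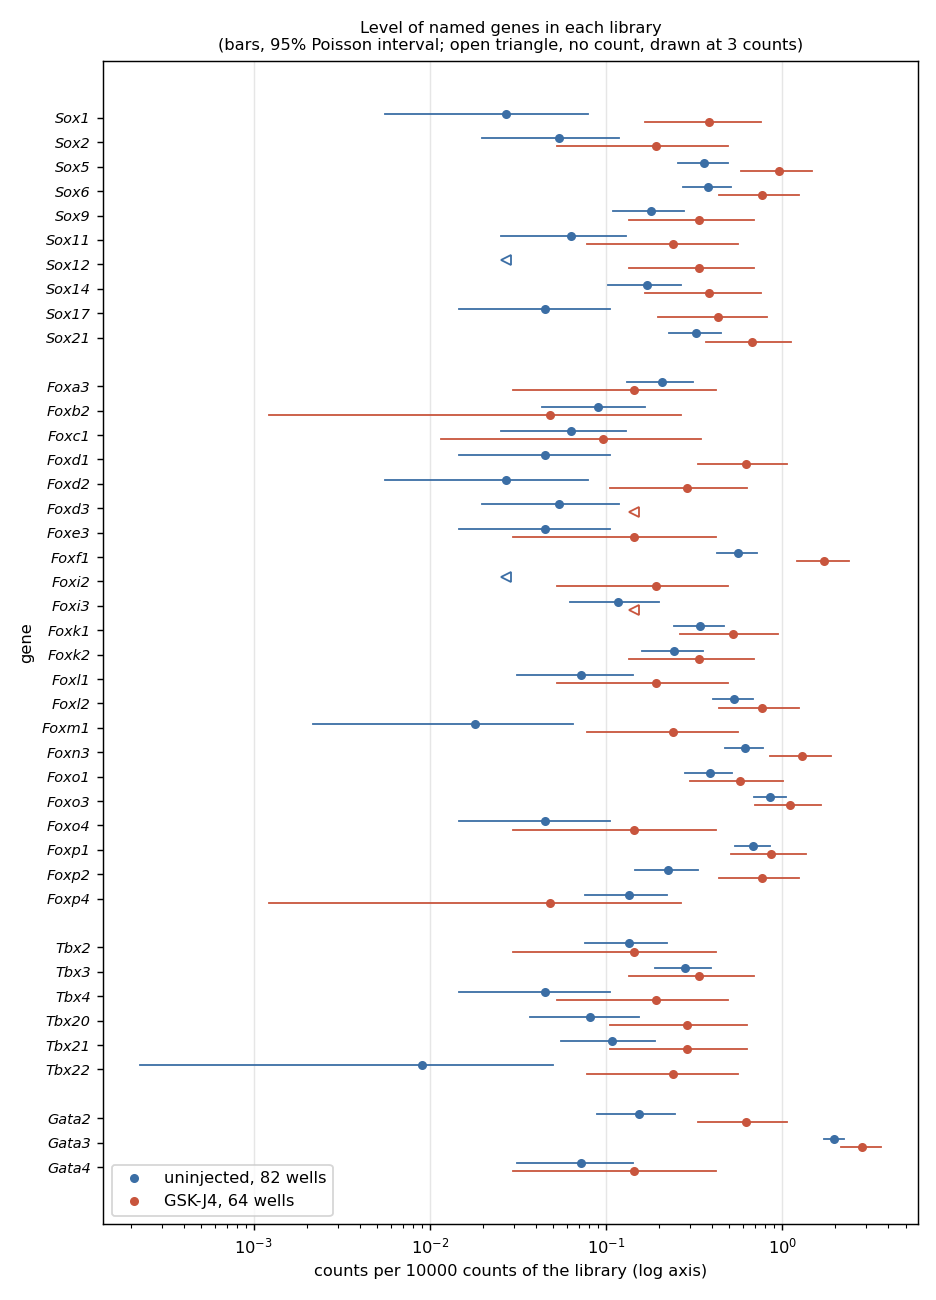
Level of members counted in at least 5% of the wells of either library, in counts per 10000 counts of the library (x axis, log), by gene (y axis) and library (colour). Points give the summed count, bars its exact 95% Poisson interval, and open triangles a gene with no count, drawn at 3 counts. Gata3 is the highest at 1.97 and 2.83, and for most genes the intervals of the libraries overlap.

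Of the 42 *Fox* genes 4 lay above the limit and 38 within it. *Foxf1*, a gene of lung and gut mesenchyme (chr8:121084386-121088144, plus strand) that overlaps Gm27530 on the other strand, had 62 counts (47.5 to 79.5) in 15 uninjected wells and 36 counts (25.2 to 49.8) in 15 GSK-J4-treated wells. Its level was 0.557 and 1.73 per 10000, with a ratio of 3.10 (2.0 to 4.75) and a log-fold of 0.48. One GSK-J4-treated well held 19 of the 36 counts, and the next highest held 2. Without the top well of each library the level was 0.425 and 0.830 per 10000 and the log-fold 0.28, within the limit.

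*Foxd1*, the temporal retina gene (chr13:98354242-98359305, plus strand), had the highest log-fold of the 73, 0.56. It had 5 counts in 5 uninjected wells and 13 counts in 11 GSK-J4-treated wells, or 0.0449 and 0.623 per 10000, with a ratio of 13.9 (4.64 to 49.7). The highest count in a well was 1 and 3, so the counts were spread over wells. Its log-fold was 0.33 under median-ratio scaling, above the limit, and 0.20 in the wells of plate columns 1 to 6, where 4 of its 13 counts lay. The other *Foxd* genes went either way: *Foxd2* had 3 counts in 3 and 6 in 6 wells (log-fold 0.18), and *Foxd3*, a neural crest gene, 6 counts in 6 wells and none (log-fold -0.054). The 0 counts of *Foxd3* allow up to 0.144 per 10000 in the GSK-J4 library, above its uninjected level of 0.0539, so a difference was not detectable at this depth.

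Foxo proteins are kept out of the nucleus by Akt and turn on genes of stress resistance and cell death. The class had 144 and 38 counts, a ratio of 1.41 (0.958 to 2.03). *Foxo3* (chr10:42181841-42276755, minus strand) had 95 counts (76.9 to 116) in 19 uninjected and 23 counts (14.6 to 34.5) in 14 GSK-J4-treated wells, with a log-fold of 0.38 and a ratio of 1.29 (0.782 to 2.06). One uninjected well, the deepest with 98250 counts, held 64 of the 95. Without the top well of each library the level was 0.305 and 0.761 per 10000 and the log-fold 0.39, whereas with median-ratio scaling it was -0.16. *Foxo1* had 43 counts in 19 and 12 in 7 wells (log-fold 0.095), with Gm20402 on the other strand, and *Foxo4* 5 in 5 and 3 in 3 wells (log-fold 0.08).

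The Foxp, Foxn and Foxk genes are broadly expressed regulators, several of them repressors. *Foxp1* had 76 counts in 26 and 18 counts in 13 wells, with a ratio of 1.26 (0.712 to 2.13) and a log-fold of 0.037. *Foxp2*, known from speech and motor circuits, had 25 in 15 and 16 in 11 wells, with a ratio of 3.42 (1.70 to 6.66) and a log-fold of 0.29. *Foxp4* had 15 counts in 9 wells and 1 count, a ratio of 0.356 (0.00845 to 2.31). *Foxn3* had 68 in 19 and 27 in 14 wells, with a ratio of 2.12 (1.30 to 3.36) but a log-fold of 0.072, since its mean over wells was 0.884 and 1.02 per 10000. *Foxk1* had 38 in 15 and 11 in 6 wells (log-fold 0.059), and *Foxk2* 27 in 13 and 7 in 7 wells (log-fold 0.13). With all kept wells none of these 6 genes passed the limit. With at least 500 genes per cell the log-fold of *Foxn3* was 0.52, with every deposited cell that of *Foxp1* 0.40, and with summed libraries those of *Foxn3* and *Foxp2* 0.35 and 0.37, all above it.

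*Foxl2*, the gene that maintains the ovary, had 59 counts in 16 and 16 counts in 10 wells, a level of 0.530 and 0.767 per 10000 and a log-fold of 0.11. Its exons overlap *Foxl2os* on the other strand. *Foxl1* had 8 in 5 and 4 in 4 wells (log-fold 0.13). *Foxa3*, a liver factor that opens closed chromatin, had 23 counts in 9 uninjected wells and 3 counts in 1 GSK-J4-treated well of 806 counts. Its share was 0.696 times that in uninjected cones (0.134 to 2.30) while its log-fold was 0.23, as the mean over wells rested on that shallow well. For 5 members, *Foxa3*, *Foxb2*, *Foxs1*, *Foxn2* and *Gata6*, the share and the log-fold differed in direction, and no direction is read for them. *Foxa3* and *Foxb2* had a lower share and a positive log-fold, and *Foxs1*, *Foxn2* and *Gata6* a higher share and a negative log-fold.

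The remaining *Fox* genes that were counted in at least 5% of wells were low. *Foxi3*, a gene of ectoderm and ear, had 13 counts in 9 uninjected wells and none in the GSK-J4 library, which allows up to 0.144 per 10000 against an uninjected level of 0.117. *Foxi2* had none in the uninjected and 4 counts (1.09 to 10.2) in 4 wells of the GSK-J4 library, 7.12-fold higher against the floor. This value too leaves out the counting error of the 4 counts. *Foxm1*, the activator of mitotic genes, had 2 counts in 2 and 5 in 5 wells, a ratio of 13.3 (2.18 to 140.1) and a log-fold of 0.18. *Foxb2* had 10 in 8 wells and 1, *Foxc1*, a gene of the anterior eye, 7 in 5 and 2 in 2 wells, and *Foxe3*, a lens gene, 5 in 5 and 3 in 3 wells. *Foxq1* had 2 and 4 counts, in 2 wells of each library, and a log-fold of 0.35. It was counted in under 5% of wells and is named after its value was seen, because it passed the limit. Without the top well of each library its log-fold was 0.044, with at least 500 genes per cell 0.058, and after thinning 0.

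All 12 *Tbx* genes had a higher share in the GSK-J4 library, as did 60.0% of all genes and 73.1% of the receptors, and 1 passed the limit. With median-ratio scaling the log-fold was -0.063 for *Tbx2* and -0.091 for *Tbx3*. It stayed positive for the other *Tbx* genes counted in at least 5% of wells. *Tbx20*, a heart gene, had 9 counts in 3 uninjected wells and 6 counts in 5 GSK-J4-treated wells, with a ratio of 3.56 (1.04 to 11.2) and a log-fold of 0.43. Of the 6 counts 2 lay in 1 well of 891 counts, and without the top well of each library the log-fold was 0.20, within the limit. *Tbx3*, the dorsal eye gene with *Tbx3os1* on the other strand, was the most counted, with 31 in 13 and 7 in 5 wells and a log-fold of 0.0073. *Tbx2*, which shares the dorsal eye with it, had 15 in 11 wells and 3 counts in 1 well (log-fold 0.065). *Tbx21*, the T helper 1 factor, had 12 in 5 and 6 in 3 wells (log-fold 0.056), *Tbx4*, a hindlimb gene, 5 in 5 and 4 in 3 wells (log-fold 0.10), and *Tbx22*, a palate gene, 1 count and 5 in 5 wells (log-fold 0.17). The ratio for *Tbx22* was 26.7 (2.99 to 1262), so the counts hardly bound it.

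Over the 42 members counted in at least 5% of wells, 38 had counts in both libraries, and the counting interval of the ratio lay above 1 for 15 of them, held 1 for 23 and lay below 1 for 0. Among all 9863 genes counted as widely and in both libraries, it lay above 1 for 29.9% and below 1 for 13.5%, on the same scale of library totals. The 0 below 1 was in part fixed by the depth. *Foxp4*, with 15 uninjected counts and 1 GSK-J4 count, had an interval that reached 2.31. A member with as few uninjected counts or fewer, and a count in both libraries, could not have an interval below 1. The 31 members counted in under 5% of wells had at most 6 counts in the uninjected and 4 in the GSK-J4 library, with log-folds from -0.067 to 0.35. The order of the members was much the same in both libraries: 8 of the 10 most counted in the uninjected library were among the 10 most counted in the GSK-J4 library (*Gata3*, *Foxo3*, *Foxp1*, *Foxn3*, *Foxf1*, *Foxl2*, *Sox5* and *Sox6*). The 10 most counted took 62.6% of the member counts in the uninjected library and 51.8% in the GSK-J4 library. Exons of 22 of the 73 genes overlap another gene, for 17 of them on the other strand.

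Per well, the number of members with a count was 0, 3.5 and 31 (lowest, median and highest) in the uninjected library and 0, 3 and 17 in the GSK-J4 library. It followed the depth of the well, and at like depth GSK-J4-treated wells held more. In wells of 1000 to 5000 counts the members took 0.0650% of the counts of 25 uninjected wells and 0.266% of those of 36 GSK-J4-treated wells. In wells of 5000 to 10000 counts the shares were 0.0982% and 0.201%, and in wells of at least 10000 counts 0.111% of 31 wells and 0.168% of 3 wells. The receptor genes took 0.845% and 1.63%, 0.482% and 1.75%, and 0.650% and 0.693% in the same 3 ranges. With every well thinned to 867 counts, leaving out 1 shallower uninjected well and 14 GSK-J4-treated wells, a member was found in 38 of 81 uninjected (46.9%, 35.7 to 58.3%) and 43 of 50 GSK-J4-treated wells (86.0%, 73.3 to 94.2%). At their own depth 82.9% and 95.3% of wells held a member. No such share of wells was at hand for the receptor genes, so the contrast is not read as particular to the members.

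**Figure D5:**
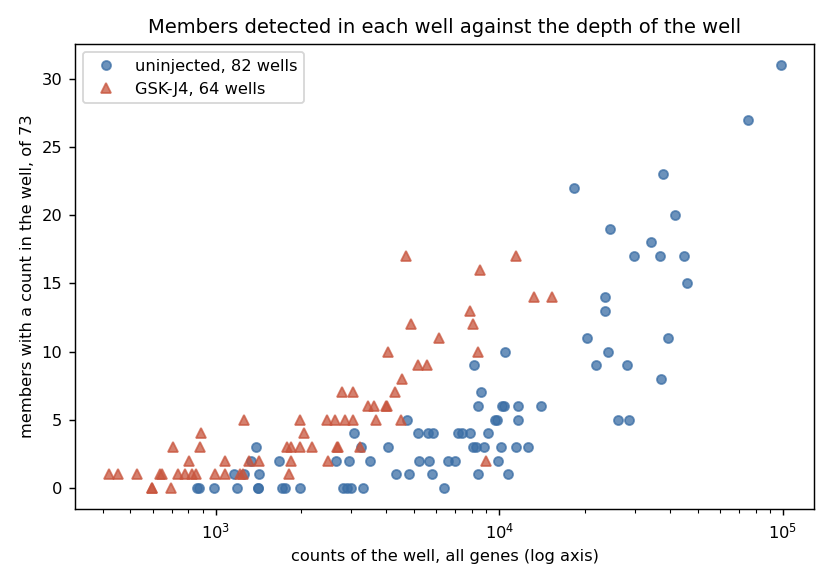
Number of the 73 members with a count in a well (y axis) against all counts of that well (x axis, log), for 82 uninjected (circles) and 64 GSK-J4-treated wells (triangles). The numbers climb with depth in both libraries, to 31 and 17, and the triangles lie above most circles of like depth.

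The position on the plate moved with some members. *Foxo3* had 3 counts in 3 of 39 uninjected wells of plate columns 1 to 6 and 92 counts in 16 of 43 wells of columns 7 to 12, and in the GSK-J4 library 5 counts in 5 of 33 and 18 in 9 of 31 wells. Without the top well of each library, which lay in columns 7 to 12, the counts were 3 and 28 in the uninjected and 5 and 10 in the GSK-J4 library. *Foxf1* had 27 counts in columns 1 to 6 and 9 in columns 7 to 12 of the GSK-J4 plate, and its log-fold was 0.76 and 0.15 in these parts. The well with 19 counts lay in column 6, and without it the counts were 8 and 9. The log-fold differed less between these parts for *Foxo3* (0.43 and 0.37), *Gata3* (0.49 and 0.59) and *Sox5* (0.39 and 0.47). The counts on the GSK-J4 plate were less even. *Gata3* had 20 in 8 wells of columns 1 to 6 and 39 in 14 wells of columns 7 to 12, and *Sox5* 6 in 6 and 14 in 12 wells. The ratio over all *Fox* genes was 2.61 (2.11 to 3.22) in columns 1 to 6 and 1.56 (1.26 to 1.92) in columns 7 to 12.

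The genes that work with these families were taken as a list of 49, of which 45 had a row in the counts. Above the limit were 7 of the 45 and below it 2, against 11.4% and 10.6% of all genes. *Sirt1*, a deacetylase that acts on Foxo proteins, had the highest log-fold of 0.59 with 28 counts in each library, and *Pax6*, an eye gene that pairs with *Sox2*, had 0.58 with 7 and 13 counts. The lowest was *Sod2*, a mitochondrial enzyme and Foxo target, at -0.79 with 381 and 8 counts. Of 12 Foxo regulators 4 lay above the limit and 1 below, and of 12 Foxo targets 2 above and 1 below. The 7 Gata partners, 4 Fox corepressors and 3 further T-box genes had none past the limit, and of 7 Sox partners 1 lay above. The median over the list was 0.1, near the 0.097 of the members.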

How the data were processed

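Single-cell RNA was measured in GFP-positive retinal cells, labelled as cones, of 1 uninjected and 1 GSK-J4-treated library. The values are raw counts that the authors deposited for each gene in each cell. The authors had aligned the reads with the CLC Genomics Workbench, removed PCR duplicates by a UMI of 8 nt and the position, used featureCounts with the Gencode M17 annotation, and added the counts of the 3′ and 5′ ends. The labels and methods name the build GRCh38, a human number. Genome coordinates and exon lengths were read from GENCODE vM21 (GRCm38).

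The filter of the methods kept 15947 of 17774 genes, those counted in 3 or more cells, and 146 of 151 cells, those with 200 or more genes and no more than 5% of mitochondrial counts. Calculations were made in Python 3.11.15 with scipy 1.17.1, numpy 2.4.6 and pandas 2.3.3, and plots with matplotlib 3.10.9. Each well was scaled to 10000 counts. Members that failed the filter were counted against the same totals. No batch correction was applied and no doublet caller was run. Intervals are exact Poisson for counts, Clopper-Pearson for shares of wells and an exact conditional interval for ratios, all at 95%, and cover counting error only, at totals of 1113424 and 208578 counts. A gene without a count was given a floor of 3 counts over its library, or 3 wells for a share of wells. The log-fold was tested on simulated Poisson counts, with changes only in genes of a higher mean than nearly all members. That test does not cover genes at the level of most members or counts that gather in single wells. Since 1 library per condition allows no test, the P-values of the methods, made from cells, were not computed.

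Values were given for every member counted in 5% or more of the wells of 1 of the libraries, and for the 2 highest and 2 lowest genes of the partner list. A few genes that met this rule are not reported here. Members and lists were chosen with earlier results of these data known. Alternatives changed the filters, the scaling, the depth, the pseudocount and the wells used. Marker lists of 14 cell types were summed, and those that bear on a member are given beside it.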

Additional observations from a re-analysis of the deposited data

How the results depend on the processing

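The higher share of counts of the *Sox*, *Fox* and *Tbx* genes and of all members in the GSK-J4 library kept its direction in every setting run, and that of the *Gata* genes in every setting but 1. The size moved. With each well thinned to 867 counts the ratio was 10.4 (4.01 to 34.1) for *Sox* and 6.08 (1.94 to 25.1) for *Tbx*. It was 2.27 (0.937 to 5.71) for *Gata*, 2.13 (1.37 to 3.34) for *Fox* and 3.15 (2.27 to 4.42) for all members. Thinning was a single random draw that left 57 member counts in the uninjected library. In wells of 1000 to 5000 counts, a setting chosen after seeing the data, the ratio was 5.81 (2.31 to 18.8) for *Sox* and 3.14 (2.11 to 4.82) for *Fox*. There it was 10.3 (2.64 to 89.0) for *Tbx*, 5.97 (2.15 to 23.1) for *Gata* and 4.09 (2.94 to 5.84) for all members, from 41 uninjected member counts. With median-ratio size factors, also chosen after seeing the data for these ratios, it was 1.62 for *Sox*, 1.12 for *Fox*, 1.72 for *Tbx*, 0.916 for *Gata*, which reversed, and 1.20 for all members. In plate columns 1 to 6 it was 2.61 for *Fox* and 2.40 for all members, it was 1.56 for *Fox* in columns 7 to 12, and 3.02 for *Gata* without *Gata3*, again a setting chosen after seeing the data. The number of members above the limit was 10 and became 1 with median-ratio size factors (1.37% of members against 3.74% of all genes), 19 after thinning (26.0% against 14.4%), 45 with a pseudocount of 0.1 (61.6% against 42.2%), and 6 without the top well of each gene (8.22% against 7.43%). The number below it was 0 and became 4 with a pseudocount of 0.1 (5.48% against 26.1%). Among members past the limit, the log-folds that reversed were those of *Gata3* (-0.15) and *Foxo3* (-0.16) with median-ratio size factors and of *Gata2* (-0.043) after thinning. Of the named members within the limit, 11 changed sign with median-ratio size factors, 4 after thinning, 9 without the top well and from 0 to 8 in the other settings. The median-ratio setting lowers every ratio by 1.78-fold by construction, and the cause of the other moves was not tested. No paired analysis was possible because there was 1 library per condition. The counts limit what could be seen: a gene with no count in the GSK-J4 library could have had up to 0.144 per 10000.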
